A study of Neurospora crassa with 22 samples.

Results

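CLR-1 is a zinc cluster transcription factor that the filamentous fungus Neurospora crassa needs to grow on cellulose. Its best known target genes encode secreted enzymes and sugar transporters. Described here are 4 further genes, of other kinds or of unknown role, with tall CLR-1 peaks in chromatin immunoprecipitation followed by sequencing (ChIP-seq). They are gln-1 (NCU06724), os-2 (NCU07024), parp (NCU08852) and NCU02485, that is, 4 of the 9729 protein-coding genes on the 7 chromosomes. The 4 genes were selected on their measured CLR-1 peaks, so the sizes of those peaks are given as a description, with no test. A peak was credited to a gene when the authors' table named the gene inside or directly beside it, or when its summit lay within 3 kb of the start codon. This gave 79 of the 42691 peaks in the 17 deposited lists: 34 for gln-1, 13 for os-2, 7 for parp and 25 for NCU02485.

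Gln-1 encodes glutamine synthetase, which joins ammonium to glutamate and so stands at the entry of nitrogen into metabolism. Os-2 encodes a MAP kinase, the counterpart of yeast Hog1 in the response to osmotic stress. It acts downstream of the histidine kinase OS-1, the response regulator RRG-1 and the kinases OS-4 and OS-5, and is known in this fungus for its part in salt tolerance, fungicide sensitivity and the daily rhythm. Parp encodes a poly(ADP-ribose) polymerase, an enzyme that consumes NAD to modify proteins and is known for its roles in DNA damage responses and ageing. NCU02485 has neither a name nor a role in the files or in the reference used here.

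All strains had the OR74A (FGSC2489) background. Mycelium pregrown on sucrose for 16 h was then given Avicel, a crystalline form of cellulose, or xylan, or sucrose again. CLR-1-GFP came from his-3::p_ccg1::clr1-GFP in a deltaclr1::HygR, mat'A' strain, and XLR-1-GFP, the regulator of xylan-degrading enzymes, from his-3::p_ccg1::xlr1-GFP in a deltaxlr1::HygR strain. CLR-2, the partner regulator in cellulose use, carried mCherry (his-3::p_ccg1::mCherry-clr2) in a deltaclr2::HygR, matA strain at 4 h. At 24 h its label gives a mat'a' heterokaryon and does not list that deletion. In all of these strains the tagged factor was driven by the ccg-1 promoter at the his-3 locus, not by its own promoter. In a further mat'a' strain CLR-1 was tagged with V5 (clr1-V5::HygR) and the mus-51 gene was deleted (deltamus51::bar), and its antibody label reads "none". The labels write the times as 4 and 24 without a unit, which are read here as hours.

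Of 22 samples, 17 had a peak list: CLR-1-GFP on Avicel (n = 3) and on sucrose (n = 2), CLR-2 on Avicel (n = 3), and XLR-1 on Avicel (n = 3) and on xylan (n = 3), all at 4 h. Single lists, without replicates, came from CLR-1-GFP at 24 h, CLR-2 at 24 h and CLR-1-V5 at 4 h, each on Avicel. The 5 inputs and mock pulldowns were not analysed here, so whether untagged or mock chromatin gave signal at these genes was not tested. Lists held 701 to 8194 peaks and 10 to 40878 tags per peak, and total reads per library are unknown. Several lists stood apart: 95.7% of the peaks of CLR-2 list 1 and 33.3% of those of CLR-2 list 3 had a fold enrichment below 1, the median false discovery rate (FDR) of CLR-2 list 2 was 100%, and the single CLR-1 list at 24 h put 71% of all genes beside a peak. Fold enrichment, score and FDR are the authors' values for each peak, and ranks place a peak only among the peaks of its own list on the chromosomes.

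The 4 genes shared a feature that the choice of genes did not use, long intergenic space upstream. Gln-1 lies on chromosome V at 4393869 to 4397472 of the NC12 assembly, on the minus strand, with its start codon at 4397025. The gap to the next gene upstream, NCU06725, was 5323 bp. Os-2 lies on chromosome IV at 4948586 to 4952179, minus strand, start codon 4950866, with a gap of 6902 bp to NCU07027. Parp lies on chromosome V at 132681 to 135523, minus strand, start codon 135083, with a gap of 2823 bp to NCU08851. NCU02485 lies on chromosome I at 2478016 to 2480713, plus strand, start codon 2478511, with a gap of 6812 bp to NCU02483. Over the 6868 genes for which the gap could be measured its median was 976 bp, and the 4 gaps stood at the 81.0 to 94.2 percentile. In each case the upstream neighbour was transcribed in the same direction, so the gap holds no start of a divergent gene. Where the authors' tables named a gene beside a main peak, it was the member alone, apart from the repeated gene entries of XLR-1 xylan list 2, and in CLR-1-GFP sucrose list 2 no gene was named for gln-1. These gaps are given without a test, since a peak is credited to the genes around it and long gaps offer more room for one.

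At each gene every CLR-1 list had a summit on 1 narrow site, and gln-1, os-2 and NCU02485 also had CLR-1 summits elsewhere. The site is defined here as the median summit of the highest peak by fold in the 3 CLR-1-GFP Avicel lists at 4 h. For gln-1 the site was at V:4400695, 3670 bp upstream of the start codon. For os-2 it was at IV:4955367, 4501 bp upstream. For parp it was at V:136728, 1645 bp upstream. For NCU02485 it was at I:2477864, 647 bp upstream of the start codon and 152 bp from the annotated 5′ end of the gene. All 7 CLR-1 lists, over both tags, both carbon sources and both times, had a summit within 500 bp of each of the 4 sites. The 7 CLR-1 summits at the site spanned 192 bp for gln-1, 77 bp for os-2, 69 bp for parp and 160 bp for NCU02485. Among the 1910 sites of CLR-1-GFP Avicel list 1, 6.7% had a summit within 500 bp in every CLR-1 list; the 4 genes were picked for their CLR-1 peaks, and nothing is read from that share.

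**Figure D1:**
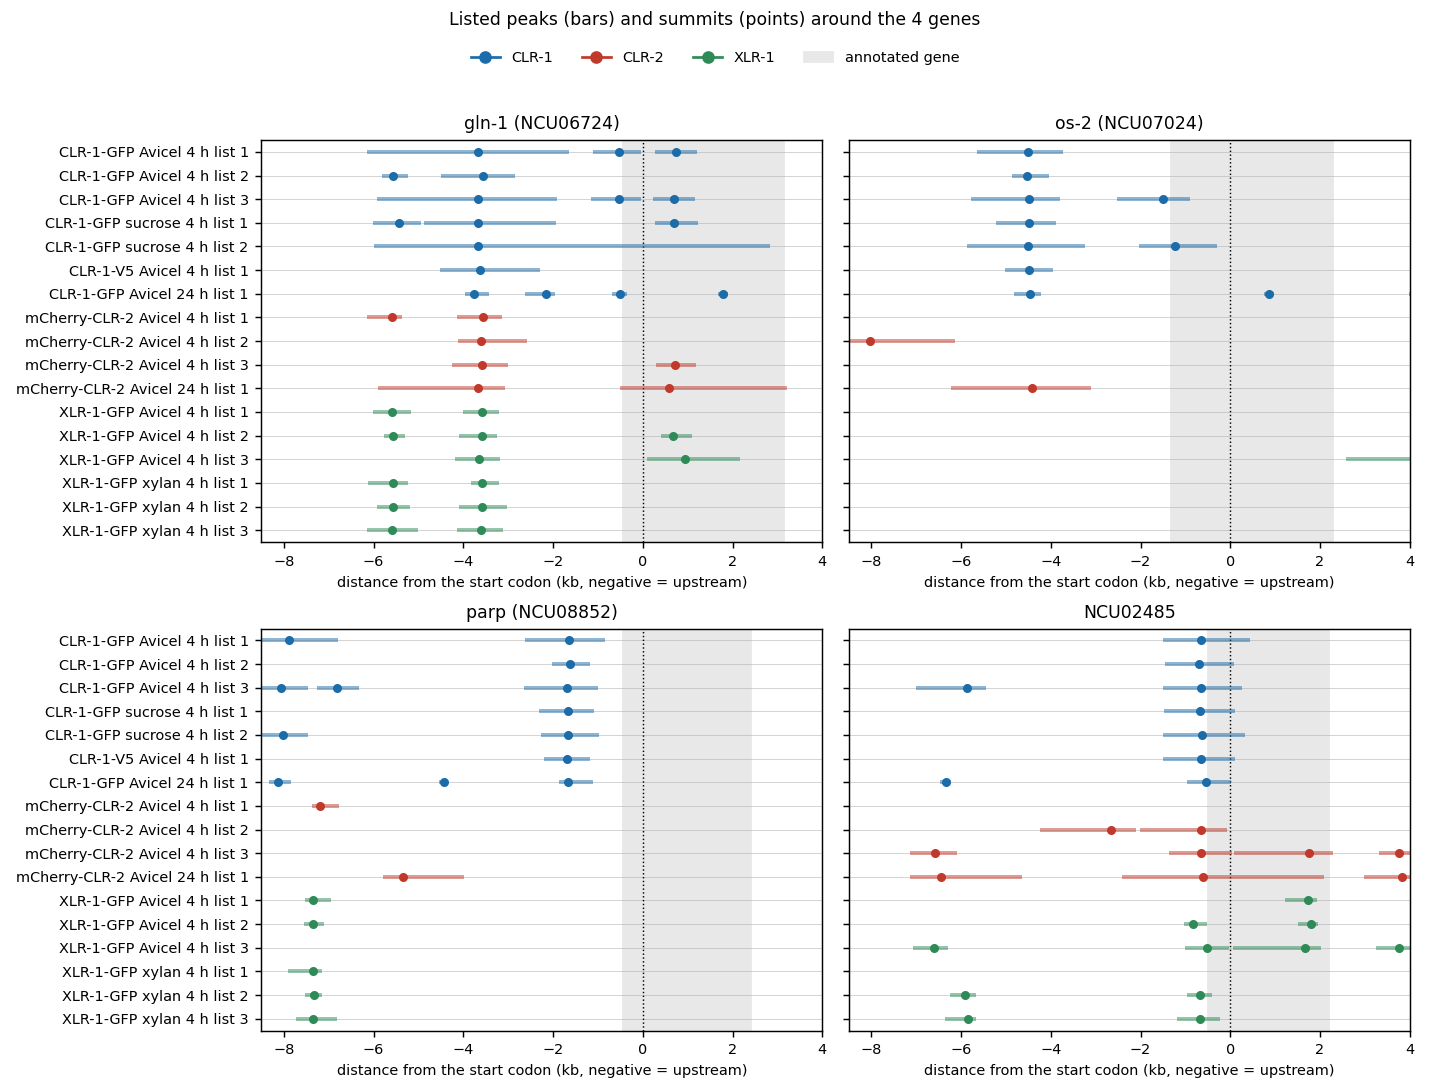
Peaks (bars, from peak start to peak end) and summits (points) of the 17 lists around the 4 genes, with the distance from the start codon in kb on the x axis (negative is upstream), 1 row per list, colour by factor and the annotated gene in grey. In all 7 CLR-1 lists a blue CLR-1 summit stands in 1 column upstream of each gene, with further blue summits elsewhere at gln-1, os-2 and NCU02485. CLR-2 and XLR-1 summits share that column at gln-1 in all 10 of their lists, at NCU02485 in 7, at os-2 in 1 and at parp in 0.

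The 4 sites differed in which factors' lists held them. Gln-1 had a summit within 500 bp of its site in all 17 lists, 7 of CLR-1, 4 of CLR-2 and 6 of XLR-1. NCU02485 had one in 14 lists, including 3 of 4 CLR-2 lists and 4 of 6 XLR-1 lists. Os-2 had one in 8 lists, the 7 of CLR-1 and the CLR-2 list at 24 h. Parp had one in the 7 CLR-1 lists and in none of the 10 others. Among the sites of CLR-1-GFP Avicel list 1, 0.105% had a summit in all 17 lists, which was 2 sites. One was that of gln-1 and the other lay 1454 bp from the start codon of gh1-1 (NCU00130), a beta-glucosidase gene. A summit in every CLR-1 list and in no CLR-2 or XLR-1 list was found at 0.89% of these sites, 17 in all, of which parp's was 1.

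Counted by the rule for crediting peaks, all 4 genes were beside a peak in each of the 3 CLR-1-GFP Avicel lists, against 8.59% of all genes, and all 4 in the CLR-1-V5 list, against 12.8%. On sucrose 3 of the 4 genes were beside a peak in both CLR-1-GFP lists, against 8.31%, and at 24 h all 4 were, against 71%. Over every CLR-1 list together 3 of 4 genes qualified, against 4.1%. The gene not counted on sucrose was gln-1, although its peak was the first of the list by fold: in sucrose list 2 that peak was 8826 bp long, covered most of the gene, and had no gene named beside it in the deposited table. Its summit lay 3677 bp from the start codon, outside the 3 kb window. Nothing is read from these CLR-1 shares, because CLR-1 peaks chose the genes.

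For CLR-2 and XLR-1 the same rule gave the following counts, which are not set against those of CLR-1, since CLR-1 peaks chose the genes. In all 3 CLR-2 Avicel lists at 4 h 1 of 4 genes (gln-1) was beside a peak, against 5.33% of all genes. In the CLR-2 list at 24 h 3 of 4 were, against 25.9%. In all 3 XLR-1 Avicel lists 2 of 4 were (gln-1 and NCU02485), against 12.2%. In all 3 XLR-1 xylan lists 0 of 4 were, against 4.02%, but that count depends on the tables. In xylan list 2 all 958 gene entries (958 of 958) repeat those of list 1 row for row, so its coordinates alone were used, and gln-1's peak there, 3582 bp from the start codon, was credited to no gene. By position gln-1 had its summit in all 3 xylan lists. Beside a peak in every CLR-1 list and in no CLR-2 or XLR-1 list were 0.0719% of all genes. These were 7 genes, parp among them together with act (NCU04173), the actin gene, NCU02562, NCU01302, NCU01303, NCU05572 and NCU02414. None of these counts was tested, and over 4 genes a count moves in steps far coarser than the shares beside it.

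Gln-1 carried the tallest of the 4 peaks in most CLR-1 lists. Its fold enrichment was 38.07, 111.06 and 27.23 in the 3 CLR-1-GFP Avicel lists, on 1792, 493 and 1940 tags. These peaks ranked 2 of 1910, 1 of 1338 and 4 of 1957 by fold. On sucrose, a preferred sugar of this fungus, the gln-1 fold was 16.99 and 3.92, on 1490 and 8508 tags, and the peak ranked 1 of 1492 and 1 of 2110. The fold at gln-1 thus headed both sucrose lists and stood among the first 4 peaks of the Avicel lists. Fold values themselves are not compared between lists, whose median peaks had folds from 2.11 to 8.645 in these 5 lists. In the CLR-1-V5 list the fold was 18.08, rank 4 of 1457. In the long 24 h list it was 12.26, rank 883 of 8110 by fold and 22 by score.

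The CLR-2 and XLR-1 lists held the same gln-1 site at varied ranks. The CLR-2 fold on Avicel at 4 h was 2.39, 2.91 and 4.34, with ranks of 1 of 2854, 220 of 1832 and 28 of 4355. The FDR of these peaks was 0.18%, 100% and 0%. At 24 h the CLR-2 fold was 2.8, rank 471 of 1672, with an FDR of 37.09%. The gln-1 peak was therefore the highest by fold in CLR-2 list 1, the list in which most peaks had a fold below 1, and not near the head of CLR-2 list 2 or of the 24 h list. The XLR-1 fold on Avicel was 58.89, 69.26 and 20.11, with ranks of 11 of 2284, 19 of 897 and 49 of 6868. On xylan it was 42.47, 48.33 and 14.6, with ranks of 61 of 942, 55 of 768 and 98 of 658. The XLR-1 peaks at gln-1 rested on 43 to 110 tags, in lists with a median of 14 to 56 tags per peak. In the CLR-1-GFP Avicel lists they rested on 493 to 1940 tags, with list medians of 40 to 261.5. Tag numbers are not compared between lists, since total reads are unknown. XLR-1 xylan list 1 carries marks of trust by the authors on 396 peaks (336 NO, 53 YES, 7 MAYBE). In the authors' deposited table both gln-1 peaks of that list are marked as overlapping the replicates, and both as not trusted.

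The os-2 site had lower ranks than gln-1 in every CLR-1 list. Its CLR-1 fold on Avicel was 17.96, 11.52 and 19.92, with ranks of 90 of 1910, 379 of 1338 and 46 of 1957. List 2, where 28.3% of peaks had a fold as high or higher, counted 41 tags at the site, against 410 and 622 in the other lists. On sucrose the fold was 9.36 and 3.76, with ranks of 53 of 1492 and 58 of 2110. The site thus stood in the first 5% of peaks in 2 of the 3 Avicel lists and in both sucrose lists. It stood lower in Avicel list 2 and in the CLR-1-V5 list, where the fold was 5.31 on 178 tags and the rank 292 of 1457. Os-2 was chosen for its CLR-1 peaks, so these ranks only describe it. At 24 h the CLR-1 fold at the site was 11.78 on 310 tags, rank 1066 of 8110 by fold and 88 by score. The same list had a peak of higher fold but fewer tags inside os-2, 865 bp downstream of the start codon. Its fold was 13.49 on 31 tags, rank 625 by fold and 866 by score.

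Of the 10 CLR-2 and XLR-1 lists, 1 had a summit at the os-2 site. The CLR-2 list at 24 h had a summit 91 bp from the os-2 site, with a fold of 2.43, rank 675 of 1672 and an FDR of 18.87%. In the 3 CLR-2 lists at 4 h the nearest summit was 10067, 3524 and 10087 bp from the site. In the 6 XLR-1 lists it was 8586 to 10084 bp away, beyond the far end of os-2 and inside the annotated span of the next gene, NCU07023, in all 6. XLR-1 Avicel list 3 thus had no summit at the os-2 site although it was the longest XLR-1 list, with 6868 peaks. A lower CLR-1 peak stood near the 5′ end of os-2, 1494 bp upstream of the start codon in CLR-1-GFP Avicel list 3 (fold 6.37) and 1238 bp upstream in sucrose list 2 (fold 2.4).

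Parp was the gene whose site only CLR-1 lists held. Its CLR-1 fold on Avicel was 25.96, 30.88 and 21.92, on 527, 89 and 682 tags, with ranks of 20 of 1910, 36 of 1338 and 27 of 1957. On sucrose it was 8.5 and 3.46, with ranks of 84 of 1492 and 154 of 2110 and an FDR of 0% and 25.44%. In the CLR-1-V5 list it was 7.91, rank 76 of 1457. At 24 h it was 12.94, rank 757 of 8110 by fold and 5 by score, on 1002 tags. Parp had no second credited peak in any list. The nearest CLR-2 summits lay 3695 to 50147 bp from the site. In 5 of the 6 XLR-1 lists the nearest summit lay 5690 to 5702 bp from it, on the far side of NCU08851, and in XLR-1 Avicel list 3 it was 8685 bp away on the other side. Nearest summits in the shorter lists are limited by how few peaks these lists hold, and the depth behind the absent peaks is unknown.

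The NCU02485 site ranked high in CLR-1 lists and in some CLR-2 lists. Its CLR-1 fold on Avicel was 27.27, 35.86 and 25.63, with ranks of 16 of 1910, 23 of 1338 and 7 of 1957. On sucrose it was 10.95 and 3.8, with ranks of 31 of 1492 and 37 of 2110. In the CLR-1-V5 list it was 14.32, rank 8 of 1457, and at 24 h 10.53, rank 1925 of 8110. By fold the 24 h list ranked the 4 sites at 9.33% to 23.7% of its length, so none was near its head by that measure. By score the same peaks ranked much higher, at 22 (gln-1), 88 (os-2), 5 (parp) and 38 (NCU02485) of 8110.

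CLR-2 had no summit near the NCU02485 site in list 1, where the nearest was 11020 bp away. In CLR-2 lists 2 and 3 the fold was 3.85 and 2.99, with ranks of 48 of 1832 and 73 of 4355 and an FDR of 75.22% and 0%. In the CLR-2 list at 24 h the site had 6303 tags and a fold of 8.35, rank 36 of 1672 by fold and 8 by score, with an FDR of 0%. In that list the other members ranked 471 (gln-1) and 675 (os-2). XLR-1 peaks at the NCU02485 site were small: 10 tags (fold 8.85, rank 864 of 897) in Avicel list 2, 57 tags (10.06, rank 1430 of 6868) in Avicel list 3, 16 tags (13.41, rank 477 of 768) in xylan list 2 and 52 tags (9.14, rank 280 of 658) in xylan list 3. The folds in the lists numbered 2 were below the median of their own lists, and list 1 of either carbon source had no summit at the site.

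**Figure D2:**
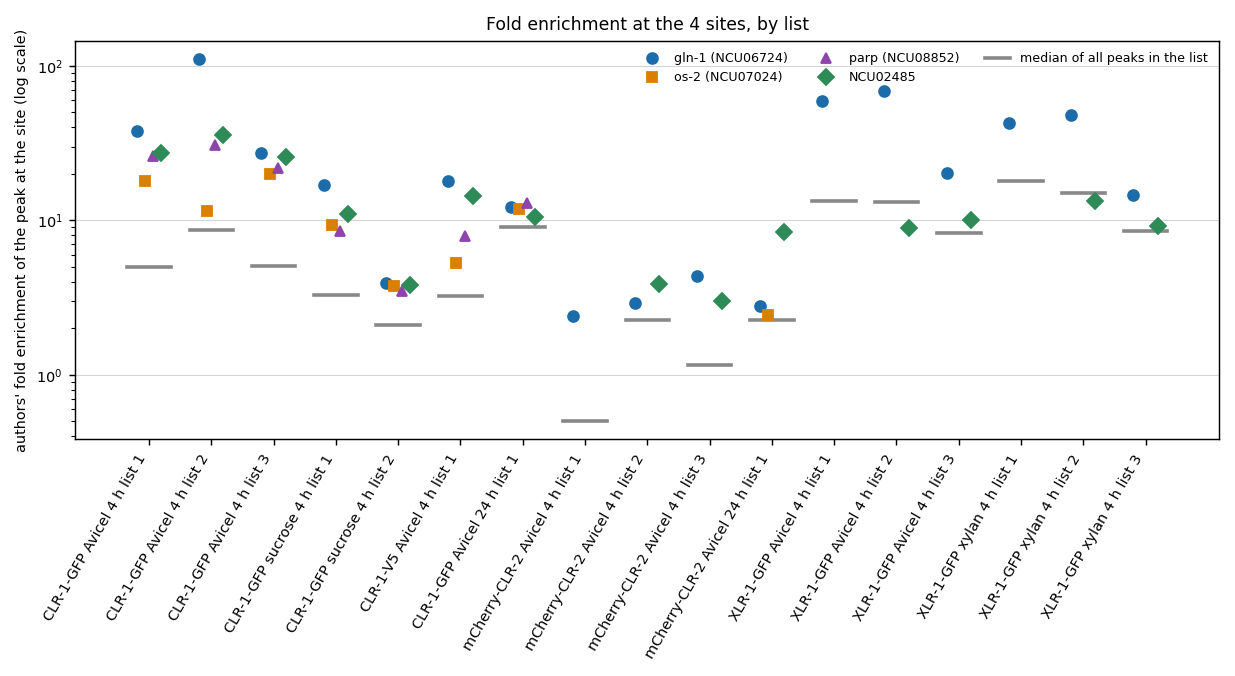
The authors' fold enrichment of the peak at each of the 4 sites, on a log axis, with 1 column per list and a grey dash for the median of all peaks of that list; a missing marker means no summit within 500 bp of the site. In the CLR-1 lists all 4 markers lie above the dash, and in the XLR-1 lists gln-1 lies above it while NCU02485 lies near or below it.

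Because the 4 folds of a list share the same library, their order within a list can be read without scaling. In all 3 CLR-1-GFP Avicel lists at 4 h the order from high to low was gln-1, NCU02485, parp and os-2, and CLR-1-V5 gave the same order. In both CLR-1-GFP sucrose lists it was gln-1, NCU02485, os-2 and parp, so that parp and os-2 exchanged places between the carbon sources in every list at 4 h. The margin was small in places, as in sucrose list 2 with folds of 3.76 for os-2 and 3.46 for parp, and in Avicel list 3 with 19.92 and 21.92. Among the 4 sites, gln-1 was the highest in 6 of 7 CLR-1 lists, and parp in the list at 24 h. Where an XLR-1 list held both sites, gln-1 was above NCU02485 in 4 of 4 lists. CLR-2 lists that held both were split, with NCU02485 above gln-1 in 2 of 3. These orders are descriptions of genes chosen on CLR-1 peaks and were not tested.

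**Figure D3:**
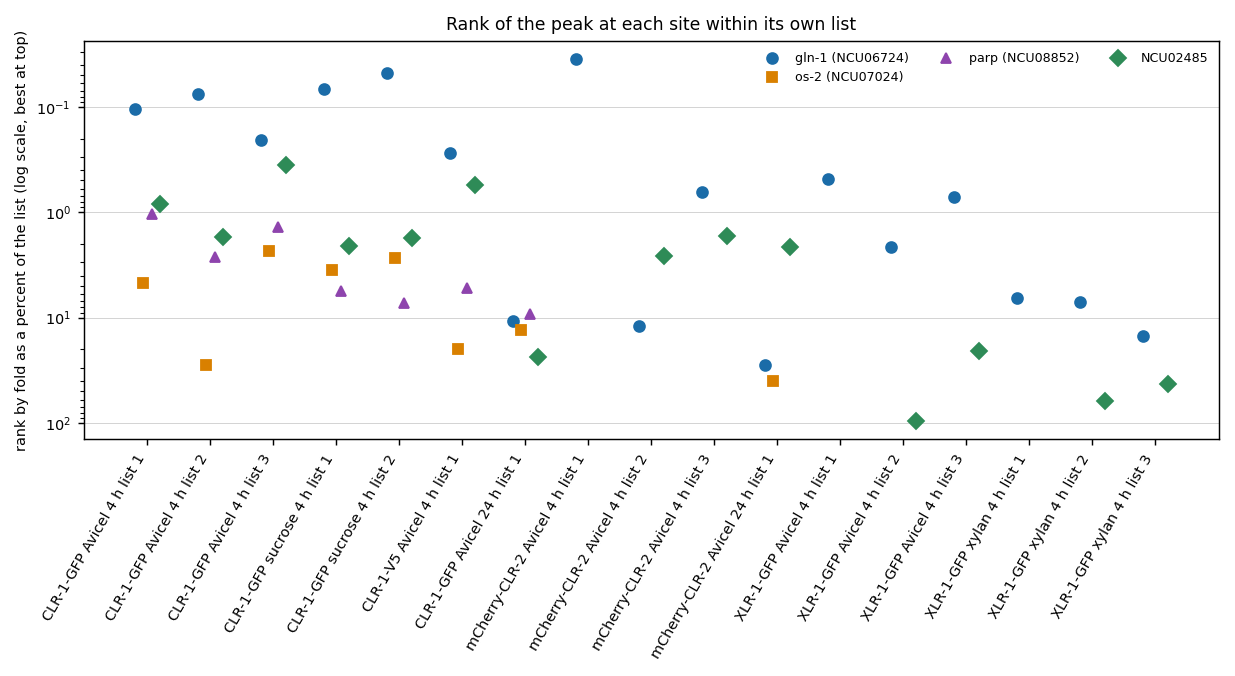
Rank of the peak at each site by fold, as a percent of the peaks in its own list, on a log axis with the best ranks at the top, for the 17 lists. Gln-1 lies within the first 0.275% of peaks in all 6 CLR-1 lists at 4 h, and os-2 ranges from 2.35% to 28.3% over the 7 CLR-1 lists; list lengths differ, so heights compare genes within a list and not lists with each other.

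Further peaks around gln-1 are given by factor, in windows that were drawn after their values were seen and with no test. A second upstream summit stood 5565 to 5581 bp upstream of the start codon in 5 of 6 XLR-1 lists, all 3 on xylan and 2 of 3 on Avicel, close to the 3′ end of NCU06725. In xylan list 1 its fold of 49.65 was above the 42.47 at the main site. In the other 4 lists it was below that of the main site, from 10.94 to 17.24. CLR-1 had a separate summit in this window in 2 of 7 lists (folds 5.98 and 3.34) and CLR-2 in 1 of 4 (fold 0.43), but 3 broad CLR-1 peaks of 4024, 4517 and 8826 bp with their summit at the main site reached across it, as did the CLR-2 peak at 24 h, of 2833 bp. A summit 518 to 539 bp upstream of the start codon was present in 3 CLR-1 lists, with folds of 6.13, 7.78 and 7, and in 0 CLR-2 and 0 XLR-1 lists. Summits inside gln-1 occurred in 4 CLR-1 lists, in 2 of CLR-2 and in 2 of XLR-1.

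Outside its site NCU02485 was credited with 11 further peaks, of all 3 factors. All 3 XLR-1 Avicel lists had a summit inside the gene, 1674 to 1790 bp downstream of the start codon, with folds of 19.63, 10.45 and 10.06. It was the tallest peak of the gene in the first and second of these lists. On xylan 0 of 3 XLR-1 lists had it. CLR-2 had it in list 3 only (fold 1.44) and CLR-1 in 0 of 7 lists. A CLR-2 summit lay 2660 bp upstream in list 2 (fold 2.03). Distant summits, nearer to NCU02483, were found in 3 XLR-1, 2 CLR-2 and 2 CLR-1 lists. They lay 5856 to 5907 bp upstream of the start codon in XLR-1 xylan lists 2 and 3 and CLR-1-GFP Avicel list 3. In XLR-1 Avicel list 3, CLR-2 Avicel list 3 and the CLR-1 and CLR-2 lists at 24 h they lay 6345 to 6593 bp upstream. The summit in xylan list 2 is not among the 11 credited peaks. Whether the difference between Avicel and xylan at the in-gene summit exceeds that between lists was not tested, and the XLR-1 Avicel lists, with 897 to 6868 peaks, were longer on the whole than the xylan lists, with 658 to 942.

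Summit positions were compared between groups by a test that could not separate them with so few lists. Taking the highest peak by fold of each gene in each list, the CLR-1-GFP Avicel summits lay at -3637.7 ± 61.3 bp (SD, n = 3) from the start codon for gln-1, at -4510.7 ± 23.1 bp for os-2, at -1649.7 ± 34.2 bp for parp and at -665 ± 31.2 bp for NCU02485. Replicate lists of a group were the only replicates, and the labels do not say that they came from separate cultures. For gln-1 the CLR-2 Avicel summits lay at -3586.7 ± 22.5 bp (SD, n = 3) and the XLR-1 Avicel summits at -3606.3 ± 42.1 bp (SD, n = 3). The exact permutation test (two-sided) gave p = 0.4 for CLR-1 against CLR-2 and p = 0.6 for CLR-1 against XLR-1, with n = 3 in each group. Of 18 pairs of groups, 1 had ranges that did not overlap, and every p adjusted over the 18 pairs in these exact tests was 1. With 3 lists against 3 the smallest possible exact p is 0.1, so no pair could pass 0.05. For NCU02485 the XLR-1 Avicel value mixed peaks from -6593 to 1790 bp, since the tallest peak was the in-gene summit in lists 1 and 2 and the distant one in list 3. The gln-1 value of XLR-1 on xylan, which enters 3 of the 18 pairs, had n = 2, since list 2 was not credited, and mixed summits at -5578 and -3596 bp.

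The window of 3 kb bore on which peaks were credited by distance alone. The peak just inside it was a CLR-2 peak of NCU02485 in list 2, with its summit 2660 bp from the start codon and a fold of 2.03. The peak just outside was the gln-1 peak of CLR-1-GFP Avicel list 2, at 3567 bp and a fold of 111.06. The main peaks of gln-1 and os-2 all lay outside the window, so they were credited where the authors' tables name the gene. This left out 2 main peaks of gln-1, those of CLR-1-GFP sucrose list 2 and XLR-1 xylan list 2.

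In a list of 10 genes of nitrogen assimilation, 3 were beside a peak in all 3 CLR-1-GFP Avicel lists, against 8.59% of all genes: gln-1, am (NCU01195), the glutamate dehydrogenase that uses NADP, and nit-6 (NCU04720), nitrite reductase. Without gln-1, which was chosen for its CLR-1 peaks, the count was 2 of 9. The best fold per list was 9.97 to 13.48 for am and 5.25 to 9.48 for nit-6. Gln-1 was chosen for its tall peak, so its own fold is no measure for theirs, and in the CLR-1 list at 24 h the best folds of nit-4 (15) and gdh-1 (NCU00461, 13.49), a second glutamate dehydrogenase gene, were above its 12.26. Gln-2 (NCU04856), a second glutamine synthetase gene, was beside a peak in 2 of 3 of these lists (fold 5.82 to 7.73) and in 0 of 1 CLR-1-V5 lists. The global nitrogen regulator nit-2 (NCU09068) and its inhibitor nmr (NCU04158) were each in 2 of 3, and the nitrate reductase gene nit-3 (NCU05298) and its activator nit-4 (NCU08294) in 0 of 3. En(am)-2 (NCU01744), glutamate synthase, was in 0 of 3 CLR-1-GFP Avicel lists. It was in all 3 CLR-2 lists at 4 h, as were 5.33% of all genes, with a best fold per list of 0.33 to 3.26. The 9 genes other than gln-1 were beside a peak in a median of 8 of the 17 lists, against 3 for all genes.

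In the MAP kinase list of 14 genes, 5 were beside a peak in all 3 CLR-1-GFP Avicel lists, against 8.59% of all genes. Os-2 was chosen for its CLR-1 peaks, and without it the count was 4 of 13. The 5 were the histidine kinase gene os-1 (NCU02815), os-2, the MAP kinase kinase gene os-5 (NCU00587), the response regulator gene rrg-2 (NCU02413) and nrc-1 (NCU06182), the kinase at the head of the mating and fusion cascade. All 5 were also beside a peak in both CLR-1-GFP sucrose lists, against 8.31% of all genes. They were picked out here by their CLR-1 Avicel peaks, so nothing is read from that. The best fold of nrc-1, 14.35 to 19.82, and that of os-5, 7.83 to 17.92, overlapped that of os-2, 11.52 to 19.92. Between os-1 and os-5 stand the MAP kinase kinase kinase gene os-4 (NCU03071), rrg-1 (NCU01895) and hpt-1 (NCU01489), which encodes the phosphotransfer protein. These were in 0 of 3 CLR-1-GFP Avicel lists, as were the MAP kinase genes mak-1 and mak-2 of the other cascades. XLR-1 on Avicel had mak-1 (NCU09842) and mik-1 (NCU02234), the kinase at the head of the cell wall integrity cascade, in 3 of 3 lists, as had 12.2% of all genes, and os-2 in 0 of 3. The 13 genes other than os-2 were beside a peak in a median of 5 of the 17 lists, against 3 for all genes.

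The last list held 9 genes, for the polymerase, the NAD-dependent deacetylases nst-1 to nst-3 and DNA repair. Of these, parp, chosen for its CLR-1 peaks, was the 1 beside a peak in all 3 CLR-1-GFP Avicel lists, against 8.59% of all genes, and 7 of the 9 were in 0 of 3. In the CLR-1 list at 24 h 7 of the 9 were beside a peak, against 71% of all genes. The ninth, mus-11 (NCU04275), the counterpart of yeast RAD52, was in 1 of 3 with a fold of 3.85. The Ku genes mus-51 (NCU08290) and mus-52 (NCU00077), needed to join broken DNA ends, were in 0 of 3, and the CLR-1-V5 strain carries a deletion of the former. The 8 genes other than parp were beside a peak in a median of 2 of the 17 lists, against 3 for all genes. None of the 3 lists was tested, and their sizes leave single genes a large share.

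**Figure D4:**
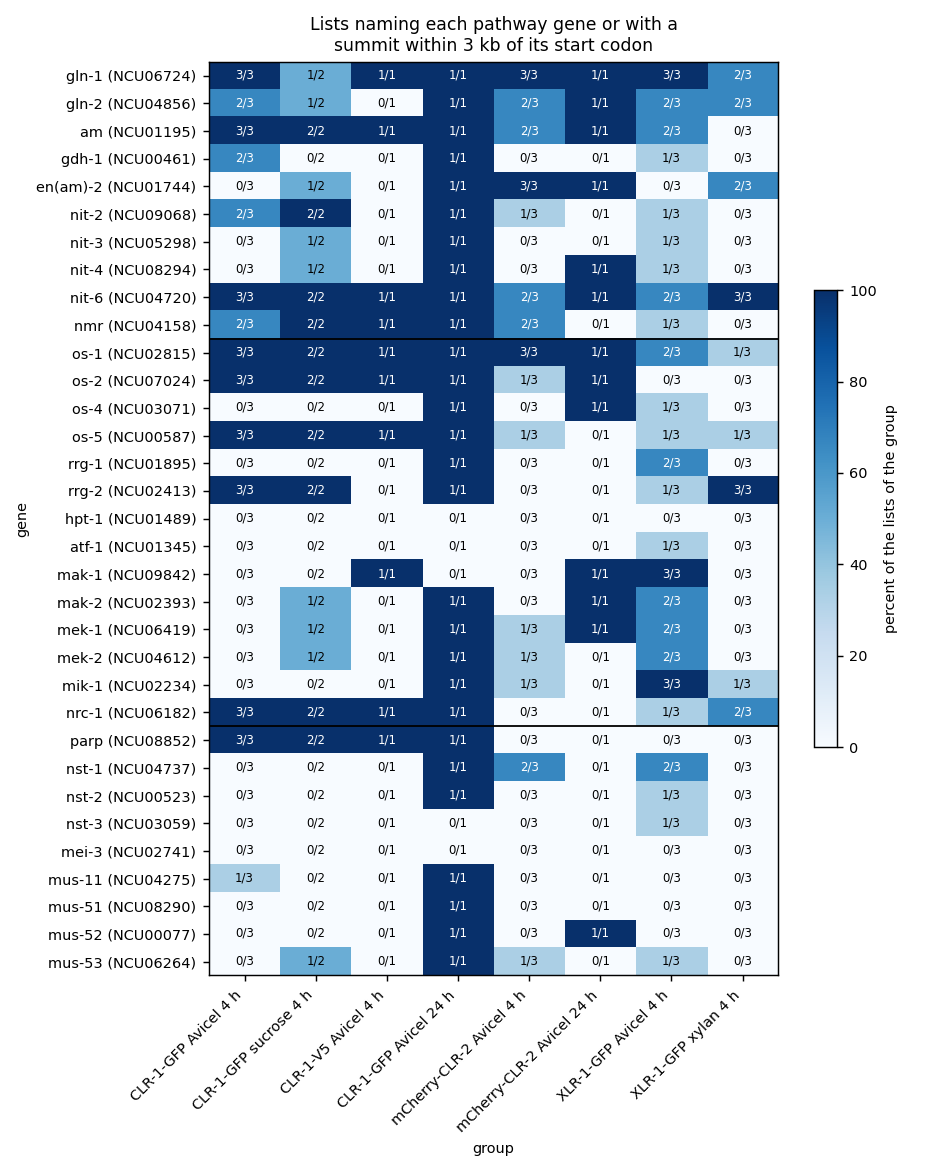
Number of lists of each group (columns) that name each gene of the 3 pathway lists (rows, separated by black lines) or have a summit within 3 kb of its start codon, as a count in the cell and as a percent in the colour. Parp is at 3 of 3 in the first column and at 0 in all CLR-2 and XLR-1 columns, while gln-1 is at 2 of 3 on xylan, where the list with repeated gene entries has its gln-1 peak outside the 3 kb window.

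Patterns over the 17 lists were compared between genes by the mean absolute difference in the rank by fold, scaled from 0 (no peak) to 1 (first in its list). With peaks credited by table or distance, the genes most like gln-1 were NCU01922 (0.138), NCU02092 (0.144) and NCU08882 (0.166), where the median of all genes was 0.750. Gln-1 entered there as no peak in CLR-1-GFP sucrose list 2 and XLR-1 xylan list 2. Its uncredited peaks in those lists ranked 1 of 2110 and 55 of 768 by fold, so genes without a peak there came out as more like it. Most like os-2 were NCU09349 (0.0723), NCU09396 (0.0737) and NCU00510 (0.0772), against a median of 0.441. Most like parp were NCU06935 (0.0213), NCU11402 (0.0279) and NCU05572 (0.0348), against 0.398. Most like NCU02485 were NCU02917 (0.0941), the neighbouring lytic monooxygenase gene gh61-3 (NCU02916, 0.0943), and NCU05846 (0.0965), against 0.656. With summits within 3 kb alone, the genes nearest to parp began with the same 2, and those nearest to NCU02485 were the same 3. For gln-1 and os-2 that version compares only their minor peaks, since the main sites lie farther out, and its nearest genes, NCU08217 and NCU00387, are not read as like them.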

How the data were processed

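Peak lists from ChIP-seq of 17 samples were used. Per the submitters' processing notes Bowtie2 aligned the reads. MACS called the peaks, per the file headers, and its settings, version and control are not stated in the labels or files used here. The tag number of a peak is a deposited count. The deposited score is -log10 of the peak's p-value times 10, per the file headers. The fold is a ratio computed by the authors, tags over the local background, and the deposited FDR is a percent (1 list has none). List numbers are those of the deposited tables, which do not name the library. Columns of no sample numbered 0.

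Start codons came from the deposited tables and gene spans from RefSeq on NC12. All 6873 genes with such a coordinate had it inside their span, with a tolerance of 3 bp. Peaks outside the 7 chromosomes were left out. Peaks were credited as the report states and ranked within lists. Total reads are unknown, so no interval was computed. Summit positions were compared with two-sided exact permutation tests and Benjamini-Hochberg adjustment. Named were the 4 genes, the genes beside their peaks, 3 pathway lists (33 of 33 symbols matched, older symbols included) and the 3 genes most like each member. Alternatives were other windows, thresholds, list lengths and peaks, and each list left out. The sites, further windows and the likeness by table or distance were chosen after values were seen. Members and lists were chosen with earlier results of these data known. Only the crediting by distance, the signed distances and the exact test were checked on simulated or made-up values. No genome sequence was used here, so no motif search was run. Tools were scipy 1.17.1, numpy 2.4.6, pandas 2.3.3 and matplotlib 3.10.9 under Python 3.11.15.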

Additional observations from a re-analysis of the deposited data

How the results depend on the processing

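Of 102 values under an alternative, 75 stayed within 1.5 times or 1 SD of the main value and 27 did not. The number of the 4 genes beside a peak in every list changed as follows. With summits within 3 kb alone it was 2 for CLR-1-GFP Avicel and CLR-1-V5 (main 4), 0 for CLR-2 Avicel (main 1) and 1 for XLR-1 Avicel (main 2). Within 1500 bp it was 1, 1, 0 and 0 for these groups and 1 for CLR-1 sucrose (main 3). A score of at least 100 gave 0 for CLR-2 Avicel and 1 for XLR-1 Avicel, as did equally long lists of 701 peaks. A fold of at least 5 gave 0 for CLR-2 Avicel and CLR-1 sucrose and 1 for CLR-2 at 24 h (main 3). Both counts of 0 were fixed beforehand for any gene. The highest fold on the chromosomes was 2.39 in CLR-2 Avicel list 1 and 3.92 in CLR-1 sucrose list 2. An FDR of at most 5% gave 0 for CLR-2 Avicel and CLR-1 sucrose. Membership in at least 1 list gave 3 for CLR-2 Avicel and 2 for XLR-1 xylan (main 0). By the site within 500 bp, added after the data were seen, it was 1 for XLR-1 Avicel and 1 for XLR-1 xylan. Leaving out 1 list gave 1 to 2 for CLR-2 Avicel, where NCU02485 was added without list 1, and 0 to 1 for XLR-1 xylan, where NCU02485 was added without list 1 and gln-1 without list 2. With the peak nearest to the start codon, the CLR-1-GFP Avicel summit lay at -1548 bp for gln-1 and -3510.7 bp for os-2. The alternatives' own construction (fewer peaks kept, a nearer peak taken) accounts for the lower counts and nearer positions. The FDR alternative was not run for CLR-1 at 24 h, whose list gives none. No paired analysis was possible because the groups share no replicate numbers in the labels. Total reads are unknown, so depth sets an unknown limit on absent peaks.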
